A study of Mus musculus with 12 samples.

Results

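The 42 genes described here encode the route that brings glucose into skeletal muscle, stores it as glycogen, releases it again and splits it to pyruvate and lactate. They comprise 2 glucose transporters, 16 enzymes of the steps from glucose to pyruvate, 4 enzymes that set the fructose phosphates, 5 proteins of lactate and glycerol phosphate, 6 enzymes of glycogen synthesis, 7 subunits of glycogen phosphorylase and its kinase, and 2 subunits that hold a phosphatase on glycogen. They were selected by gene symbol, with earlier results of these data known, and all 42 were found among the 25094 genes listed for each strain. Polyadenylated RNA came from the gastrocnemius, the large calf muscle, of male wild-type (WT) mice of 2 inbred strains, C57BL/6 and BALB/c. In both strains the right sciatic nerve had been cut, its ends had been turned back and stitched into muscle, and tissue was collected 2 weeks later. The right leg is labelled muscle atrophy and the left leg healthy, giving 4 groups (strain by leg) of 3 libraries each. No transgene or drug is named, the age is not given, and although the protocol describes sham surgery, no label says that the left legs had it. Whether libraries of 1 group stem from different animals is not stated either, so a p-value reflects the spread among these samples alone, and that spread may be technical.

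In muscle, insulin and contraction move the transporter GLUT4 (Slc2a4) to the cell surface, hexokinase traps glucose as glucose 6-phosphate, and phosphofructokinase and pyruvate kinase are the classical control points of glycolysis. Glycogen is built by glycogenin, glycogen synthase and the branching enzyme. It is broken down by glycogen phosphorylase, which phosphorylase kinase activates in response to calcium and adrenaline. Several steps exist as a form that adult muscle favours and forms that most other tissues use. Fast-twitch fibres, which make up most of the mouse gastrocnemius, are known for high levels of the muscle forms.

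Promoter sequences from RefSeq (build GRCm38.p6, 250 bases before to 50 bases after a start site) were matched for 40 of the 42 genes, in 57 windows; Gpd1 and Slc2a4 had no entry. The 4 printed here were chosen because they stand for the directions found: Slc16a3 and Pygm fell strongly in both strains, and Slc2a1 and Phkg2 rose in both. Letters searched on both strands are in capitals: ACGTG and GCGTG (core letters of the hypoxia response element) and CAGCTG (an E-box bound by myogenic factors).
Slc16a3 (chr11:120948817-120949116, plus strand): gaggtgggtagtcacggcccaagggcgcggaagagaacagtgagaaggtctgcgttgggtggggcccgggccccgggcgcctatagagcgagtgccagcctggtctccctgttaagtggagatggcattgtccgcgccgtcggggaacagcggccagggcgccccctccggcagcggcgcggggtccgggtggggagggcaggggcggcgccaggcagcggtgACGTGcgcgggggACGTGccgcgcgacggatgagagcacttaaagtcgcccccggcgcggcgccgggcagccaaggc
Pygm (chr19:6384158-6384457, plus strand): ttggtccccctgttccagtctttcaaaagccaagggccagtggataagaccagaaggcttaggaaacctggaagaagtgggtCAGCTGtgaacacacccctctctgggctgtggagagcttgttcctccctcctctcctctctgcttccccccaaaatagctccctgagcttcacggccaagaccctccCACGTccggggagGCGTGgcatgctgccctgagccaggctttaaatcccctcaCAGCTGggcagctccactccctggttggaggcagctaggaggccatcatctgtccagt
Slc2a1 (chr4:119108495-119108794, plus strand): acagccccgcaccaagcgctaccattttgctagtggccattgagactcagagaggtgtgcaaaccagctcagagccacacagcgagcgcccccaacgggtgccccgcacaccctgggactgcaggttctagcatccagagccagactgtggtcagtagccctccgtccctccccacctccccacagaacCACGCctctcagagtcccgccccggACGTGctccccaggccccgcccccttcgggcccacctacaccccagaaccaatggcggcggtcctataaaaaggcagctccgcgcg
Phkg2 (chr7:127573098-127573397, plus strand): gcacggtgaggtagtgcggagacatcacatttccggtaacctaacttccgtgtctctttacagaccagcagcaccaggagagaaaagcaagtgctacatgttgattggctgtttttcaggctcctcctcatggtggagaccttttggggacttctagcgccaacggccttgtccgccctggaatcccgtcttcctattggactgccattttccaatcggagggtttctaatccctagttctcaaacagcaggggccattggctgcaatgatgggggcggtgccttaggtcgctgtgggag
Of the 57 windows, 43.9% held ACGTG, against 19.6% of all 32851 windows of that length. GCGTG was found in 49.1% against 32.4%, CAGCTG in 24.6% against 16.3%, and CACGTG, an E-box that contains ACGTG, in 10.5% against 7.15%. Some windows of 1 gene overlap, as for Aldoa, Eno1 and Pfkm, so 1 match can count more than once. By gene, 22 of the 40 held ACGTG, 23 GCGTG, 14 CAGCTG and 6 CACGTG. The shares of all genes were not counted. The Slc16a3 window, of a gene that fell, and the Slc2a1 window, of a gene that rose, both hold ACGTG, while Phkg2 holds none of these letters. These matches describe the windows and were not tested.

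Values are RPKM, read counts scaled to transcript length and to a library total, so levels can be compared between genes per length. Between 14826933 and 17323383 reads of a library lay in listed genes. A change is the right value less the left one as log2(RPKM + 0.5), tested with limma and adjusted by the Benjamini-Hochberg method over all genes tested in a strain; "rose" and "fell" mean an adjusted p under 0.05. Across all tested genes the median change was 0.52 in C57BL/6 and 0.38 in BALB/c, so calls after a rescaling that centres this shift (median of ratios) are given beside the deposited ones. Muscle markers were high in all 12 libraries, with Ckm at 3873 to 31508 RPKM and Acta1 at 13735 to 38413 RPKM. Among the BALB/c left libraries, library 2 had the lowest sum of fast fibre markers, at 81789 RPKM against 120047 and 106049. By the list of slow fibre markers, which also holds Myh2 of fast IIA fibres, left library 1 stood apart instead. It summed to 601 RPKM against 3617 and 3091. The median absolute log2 distance of a gene from the mean of the other 2 libraries of its group was 0.29 in BALB/c right library 2. It was 0.22 in left library 2, 0.20 in right library 1, and 0.19 in left library 1 and in right library 3. BALB/c right libraries 1 and 2 held erythroid markers at 12470 and 27119 RPKM in sum, against 399 in right library 3 and 239 to 1848 in the left ones. Values without one of these libraries are given beside most results whose call they change and beside some others. Genes that the contrast between strains gained without a library are only counted. In such bulk samples, fewer cells of a type and less RNA per cell cannot be told apart.

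RNA of this pathway made up a far smaller share of the summed RPKM in denervated muscle of both strains. Such a share does not give the amount of RNA per muscle. In C57BL/6 the 42 genes together made up 7.50%, 7.43% and 7.45% of the summed RPKM of all genes in the left libraries and 2.62%, 2.73% and 2.82% in the right ones. In BALB/c the shares were 7.36%, 7.07% and 7.37% and 2.67%, 2.69% and 2.25%. Aldoa alone gave 3.61% ± 0.0405 (SD, n = 3) on the left and 1.58% ± 0.0633 on the right in C57BL/6. Every right library lay below every left one, and this share does not depend on how libraries are scaled.

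In C57BL/6, 28 of the 42 genes fell, where 8.56% of all 14551 tested genes did, and 11 rose, where 63.6% of all genes did. After rescaling, 29 fell against 26.4% of all genes and 8 rose against 28.2%. In BALB/c, 26 fell against 7.67% of all 14819 tested genes, and 7 rose against 42.5%; after rescaling, 27 fell against 19.0% and 4 rose against 21.8%. Without BALB/c left library 2 the BALB/c counts were 26 and 8, without right library 1 they were 26 and 7, and without right library 2 they were 28 and 7. Over all 14820 genes tested without left library 2, 964 fell and 6038 rose. The all-gene counts were 1035 and 5355 of 14742 without right library 1, and 1060 and 6779 of 14783 without right library 2. The median change of the 42 genes was -0.89 in C57BL/6 and -1.23 in BALB/c, or -1.41 and -1.61 relative to the median of all tested genes. The strains share no library, and 25 genes fell in both, which is 89.3% of the C57BL/6 falls and 96.2% of the BALB/c falls. All 7 genes that rose in BALB/c (Gbe1, Hk1, Pfkl, Pfkp, Phka2, Phkg2 and Slc2a1) also rose in C57BL/6, where they made up 63.6% of the rises. How many of all tested genes were called alike in both strains was not counted. These overlaps therefore have no background, and with 63.6% of all genes risen in C57BL/6, shared rises are common.

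**Figure D1:**
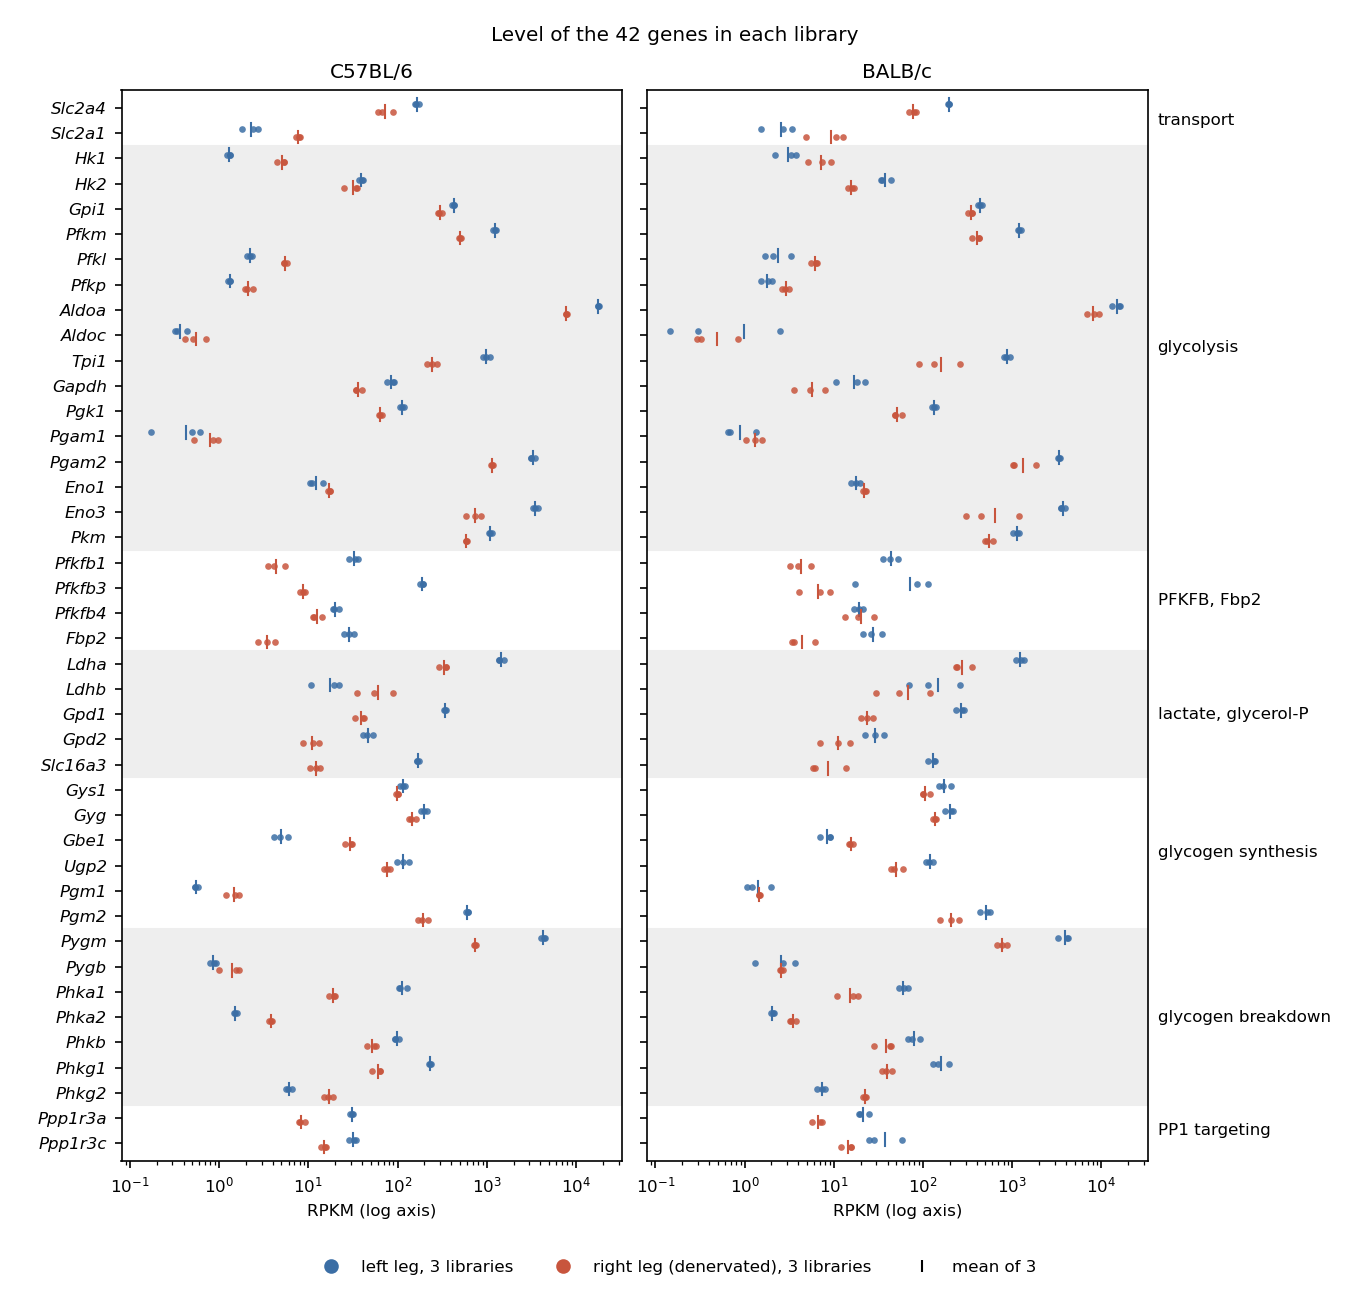
RPKM (log axis) of each of the 42 genes in each library, by role; blue points are left and red points right libraries, and ticks are the means of 3. Genes at high levels, such as Aldoa, Pygm and Eno3, sit further left in the denervated leg, and most genes at a few RPKM sit further right.

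**Figure D2:**
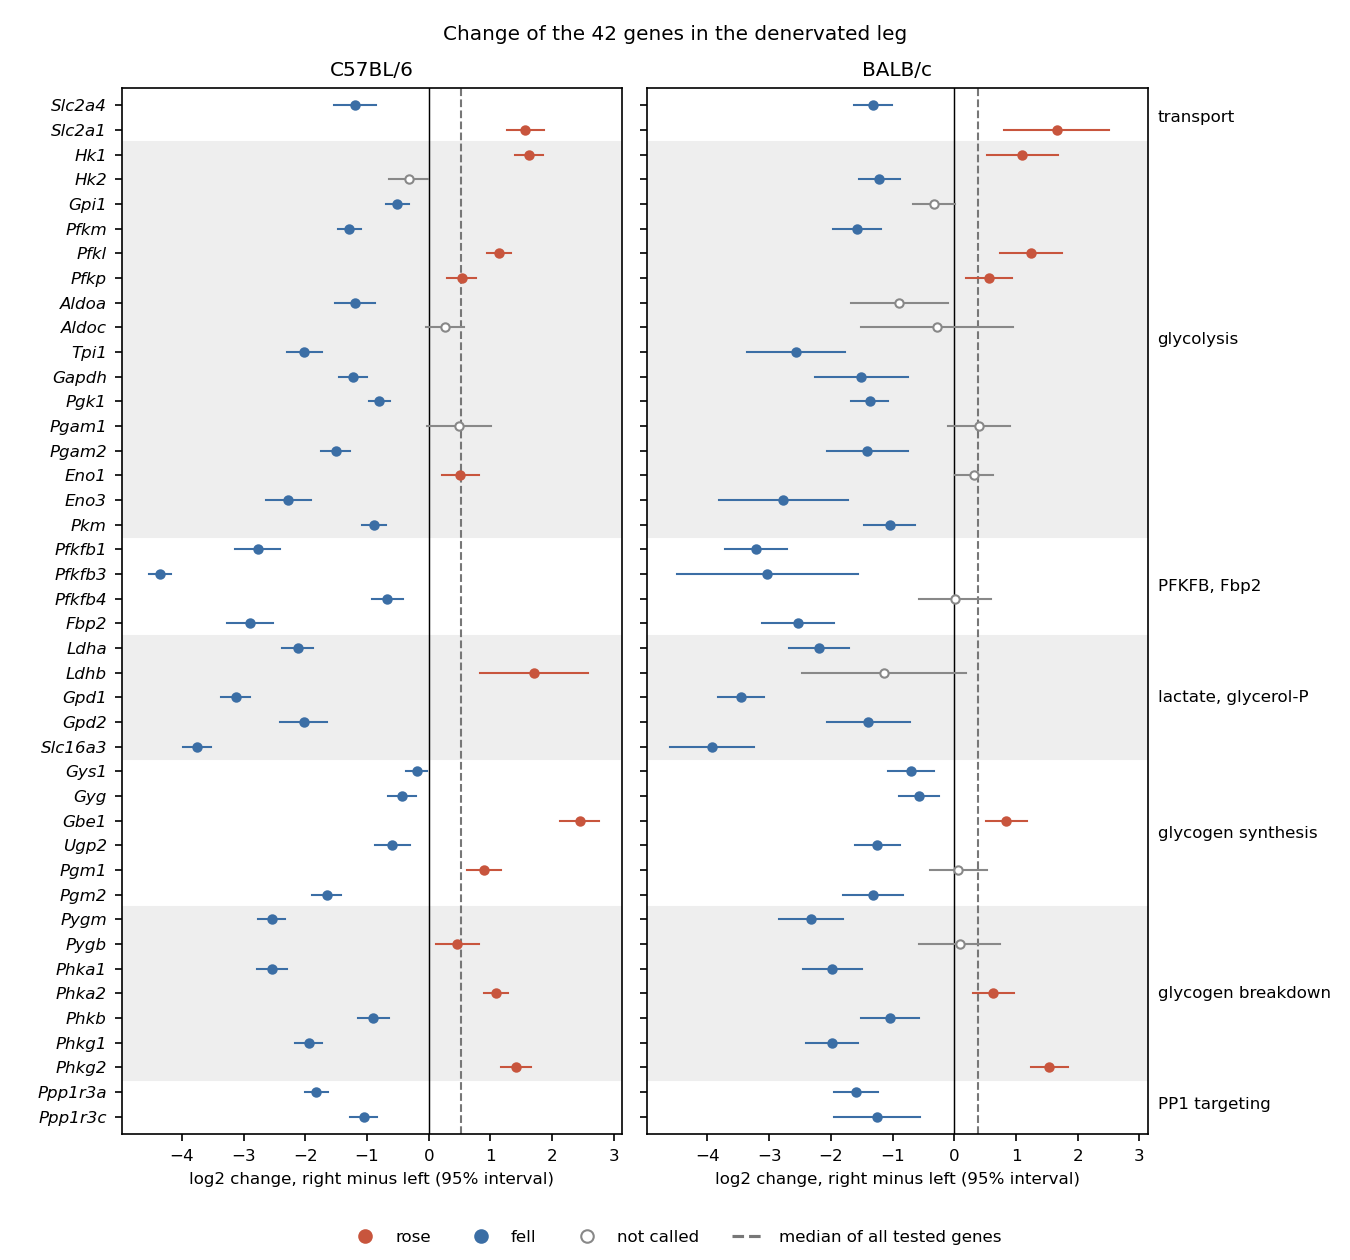
Change of each gene between the legs, as log2(RPKM + 0.5) with its 95% interval; red marks genes that rose, blue genes that fell and open grey circles genes not called, and the dashed line is the median of all tested genes. In C57BL/6, 28 points are blue and 11 red, and in BALB/c 26 are blue and 7 red.

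The muscle glucose transporter fell and the general one rose in both strains. Slc2a4 (NM_009204, mm9 chromosome 11, 69755788 to 69761692), which encodes the insulin-responsive transporter GLUT4, stood at 157, 172 and 163 RPKM in the left and at 59.7, 89.3 and 67.6 RPKM in the right C57BL/6 libraries. Slc2a4 stood at 194, 196 and 190.0 RPKM in the left and at 84.3, 78.9 and 68.9 RPKM in the right BALB/c libraries. The legs did not overlap in either strain, and Slc2a4 fell by 1.197 in C57BL/6 and by 1.32 in BALB/c on the log2 scale (adjusted p = 1.92e-04 and 1.65e-04). Slc2a1, which encodes GLUT1, the transporter of many other cell types, stood at 2.70, 2.40 and 1.80 RPKM in the left and at 7.77, 8.04 and 7.34 RPKM in the right C57BL/6 libraries. Slc2a1 stood at 1.52, 2.71 and 3.38 RPKM in the left and at 4.88, 10.7 and 12.6 RPKM in the right BALB/c libraries. All right libraries lay above all left ones of their strain, with a rise of 1.57 (SE 0.13) in C57BL/6 and 1.66 (SE 0.37) in BALB/c.

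Hexokinase, the first step of glycolysis, has the form Hk2 in insulin-responsive tissue and the form Hk1 in most others. Hk2 (NM_013820, mm9 chromosome 6, 82675021 to 82724448) stood at 40.9, 39.7 and 36.7 RPKM in the left and at 24.98, 34.9 and 34.6 RPKM in the right C57BL/6 libraries. Hk2 stood at 33.6, 43.6 and 34.4 RPKM in the left and at 16.7, 14.3 and 15.9 RPKM in the right BALB/c libraries. In C57BL/6 right library 1 was the low one, and the change there was not called (-0.32, SE 0.13, adjusted p = 0.0632), though it was after rescaling (-1.03, adjusted p = 4.21e-04) and without right library 2 (adjusted p = 0.0462). In BALB/c Hk2 fell by 1.22 (adjusted p = 3.33e-04) with the 3 right libraries close together. Hk1 stood at 1.24, 1.31 and 1.33 RPKM in the left and at 5.32, 4.497 and 5.34 RPKM in the right C57BL/6 libraries. Hk1 stood at 2.22, 3.72 and 3.33 RPKM in the left and at 7.34, 5.13 and 9.29 RPKM in the right BALB/c libraries. Hk1 rose in both strains, 3.91-fold in C57BL/6 and 2.35-fold in BALB/c on the mean RPKM. Gpi1, which turns glucose 6-phosphate into fructose 6-phosphate, went from 424 ± 9.86 to 298 ± 19.3 RPKM (SD, n = 3) in C57BL/6, a fall. The Gpi1 transcript matches 8 other genes over 55.4% of its length. In BALB/c Gpi1 went from 435 ± 21.6 to 345 ± 20.6 RPKM and was not called (adjusted p = 0.0932). It was called a fall after rescaling (-0.86, adjusted p = 0.0123), with or without the replicate block, with a common sum, with a spread shared over all libraries and with limma-voom on recovered reads.

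Of phosphofructokinase, which commits sugar to glycolysis, the muscle subunit fell and the liver subunit rose in both strains. Pfkm, the muscle subunit, stood at 1264, 1172 and 1241 RPKM in the left and at 509.6, 487 and 507 RPKM in the right C57BL/6 libraries. Pfkm stood at 1255, 1190.4 and 1148 RPKM in the left and at 427, 422 and 357 RPKM in the right BALB/c libraries. Pfkm fell 2.45-fold in C57BL/6 and 2.98-fold in BALB/c, with no overlap. Pfkl, the liver subunit, stood at 2.23, 2.35 and 2.08 RPKM in the left and at 5.78, 5.35 and 5.33 RPKM in the right C57BL/6 libraries. Pfkl stood at 1.69, 3.31 and 2.08 RPKM in the left and at 6.32, 6.44 and 5.59 RPKM in the right BALB/c libraries. Pfkl rose in both strains, by 1.14 (SE 0.083) and 1.25 (SE 0.22). Pfkp, the platelet subunit, stood at 1.26, 1.33 and 1.34 RPKM in the left and at 2.04, 2.39 and 1.94 RPKM in the right C57BL/6 libraries. Pfkp stood at 1.52, 2.01 and 1.85 RPKM in the left and at 2.62, 3.17 and 2.83 RPKM in the right BALB/c libraries. Pfkp also rose in both, by 0.53 and 0.56, but after rescaling its change was -0.02 in C57BL/6 and 0.13 in BALB/c and neither was called. The BALB/c call was also lost without left library 1 or 3 or right library 3 (adjusted p = 0.0712, 0.0602 and 0.0549). The listed span of Pfkp overlaps that of Pitrm1 on the other strand, which stood at a mean of 12.3 RPKM in C57BL/6, and the counting did not use strand.

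The enzymes that set fructose 2,6-bisphosphate, a strong activator of phosphofructokinase, and the muscle fructose bisphosphatase fell in C57BL/6, and all but Pfkfb4 fell in BALB/c. Pfkfb3 (NM_001177758, mm9 chromosome 2, 11393058 to 11475556), which mainly makes that activator, stood at 192, 177 and 193 RPKM in the left and at 8.07, 8.70 and 9.28 RPKM in the right C57BL/6 libraries. The legs lay 21.6-fold apart in C57BL/6, the largest fall among the 42 genes there (-4.36, SE 0.076). Pfkfb3 stood at 113, 17.5 and 86.2 RPKM in the left and at 9.10, 4.05 and 6.99 RPKM in the right BALB/c libraries. Left library 2 was far below the other left ones, and the BALB/c fall was -3.03 with it and -3.85 without it. Pfkfb1, a family member of liver and muscle, stood at 28.6, 36.0 and 33.2 RPKM in the left and at 3.52, 5.50 and 4.15 RPKM in the right C57BL/6 libraries. Pfkfb1 stood at 42.5, 51.8 and 35.2 RPKM in the left and at 4.02, 5.58 and 3.19 RPKM in the right BALB/c libraries. No libraries of the legs overlapped, and Pfkfb1 fell 7.42-fold and 10.1-fold. Fbp2, the muscle fructose bisphosphatase, which runs the step backwards, stood at 25.4, 32.6 and 28.7 RPKM in the left and at 2.70, 3.48 and 4.28 RPKM in the right C57BL/6 libraries. Fbp2 stood at 34.9, 20.995 and 26.3 RPKM in the left and at 3.44, 6.11 and 3.59 RPKM in the right BALB/c libraries. It fell 8.29-fold in C57BL/6 and 6.26-fold in BALB/c. Pfkfb4, a further kinase-phosphatase of the family, fell from 19.999 ± 1.78 to 12.4 ± 1.54 RPKM in C57BL/6. In BALB/c Pfkfb4 went from 19.0 ± 2.19 to 20.1 ± 7.61 RPKM with overlapping legs, a change of 0.02 as deposited and -0.50 after rescaling, called under neither.

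Aldolase A was the most abundant of the 42 RNAs in every group. Aldoa, which splits fructose bisphosphate, stood at 17752, 17601 and 18223 RPKM in the left and at 7686, 7769 and 7943 RPKM in the right C57BL/6 libraries. Aldoa stood at 15716, 13066 and 15989 RPKM in the left and at 8145, 9344 and 6812 RPKM in the right BALB/c libraries. It fell 2.29-fold in C57BL/6 (adjusted p = 1.54e-04), while the 1.84-fold lower BALB/c mean was not called (adjusted p = 0.0599) although no libraries overlapped. It was called a fall without BALB/c right library 2 (adjusted p = 0.0383) and under 6 other alternatives, with adjusted p from 0.00256 (limma-voom on recovered reads) to 0.0395 (a pseudocount of 0.1), but not after median-of-ratios rescaling (adjusted p = 0.0569). Aldoc, the aldolase of brain, stood at 0.435, 0.320 and 0.338 RPKM in the left and at 0.510, 0.711 and 0.414 RPKM in the right C57BL/6 libraries. Aldoc stood at 2.51, 0.145 and 0.303 RPKM in the left and at 0.839, 0.326 and 0.292 RPKM in the right BALB/c libraries. The legs overlapped in both strains, no change was called, and the BALB/c left mean rests on left library 1. Behind Aldoc stood 7 to 122 reads a library.

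Triose phosphate isomerase (Tpi1) fell from 989 ± 93.5 to 245 ± 31.6 RPKM in C57BL/6 and from 867 ± 64.5 to 160.0 ± 86.3 RPKM in BALB/c, where the change was -2.57 with right library 2 and -2.97 without it. Gapdh, which makes the NADH of glycolysis, fell from 85.3 ± 7.52 to 36.1 ± 2.99 RPKM in C57BL/6 and from 17.0 ± 5.86 to 5.66 ± 2.19 RPKM in BALB/c. These Gapdh levels were far below those of its neighbours in the pathway: 82 other annotated genes, 78 of them pseudogenes, match the Gapdh transcript at 95% identity or more over 94.2% of its length. How much of its reads the counting lost or gained was not tested, so its level is uncertain. Pgk1, the first ATP-yielding step, matches 4 pseudogenes over 68.8% of its length. Pgk1 (NM_008828, mm9 chromosome X, 103382439 to 103399038) stood at 112, 105 and 118 RPKM in the left and at 62.5, 66.2 and 63.2 RPKM in the right C57BL/6 libraries. Pgk1 stood at 139, 128 and 133 RPKM in the left and at 48.5, 57.8 and 48.1 RPKM in the right BALB/c libraries. The legs did not overlap, and Pgk1 fell 1.75-fold in C57BL/6 and 2.59-fold in BALB/c.

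The muscle forms of lower glycolysis fell in both strains. Pgam2, the muscle phosphoglycerate mutase, stood at 3140.0, 3133 and 3498 RPKM in the left and at 1186, 1137 and 1108 RPKM in the right C57BL/6 libraries. Pgam2 stood at 3398, 3297 and 3332 RPKM in the left and at 1054, 1864 and 1016 RPKM in the right BALB/c libraries. Pgam2 fell 2.85-fold and 2.55-fold, with BALB/c right library 2 the highest of the right ones; the BALB/c change was -1.41 with it and -1.69 without it. Pgam1, the form of most other tissues, stood at 0.173, 0.497 and 0.611 RPKM in the left and at 0.860, 0.519 and 0.980 RPKM in the right C57BL/6 libraries. Pgam1 stood at 0.690, 1.33 and 0.648 RPKM in the left and at 1.31, 1.04 and 1.56 RPKM in the right BALB/c libraries. These rest on 6 to 55 reads a library, the legs overlapped, and neither change was called. Without BALB/c left library 2 the BALB/c change of 0.62 was called a rise (adjusted p = 0.0310). Without C57BL/6 right library 2 the C57BL/6 change of 0.65 was called a rise (adjusted p = 0.0399). Of the Pgam1 transcript, 43.1% matches 1 pseudogene. Eno3, the muscle enolase, stood at 3447, 3298 and 3734 RPKM in the left and at 585, 863 and 739.9 RPKM in the right C57BL/6 libraries. Eno3 stood at 3927, 3557 and 3562 RPKM in the left and at 441, 1175 and 304 RPKM in the right BALB/c libraries. Eno3 fell 4.79-fold in C57BL/6 and 5.75-fold in BALB/c, where right library 2 again stood above the others; the BALB/c change was -2.77 with that library and -3.33 without it. Eno1, the general enolase, stood at 10.5, 10.9 and 14.8 RPKM in the left and at 17.6, 16.8 and 17.4 RPKM in the right C57BL/6 libraries. Eno1 stood at 15.4, 17.8 and 19.8 RPKM in the left and at 21.1, 22.7 and 22.2 RPKM in the right BALB/c libraries. Eno1 rose in C57BL/6 (0.51, SE 0.13, adjusted p = 0.00795) and was not called in BALB/c (0.32, SE 0.13, adjusted p = 0.0815), and after rescaling its changes were -0.18 and -0.20, not called. It matches 3 other genes over 85.6% of its transcript. Pkm, pyruvate kinase, fell from 1096 ± 43.8 to 592 ± 8.39 RPKM in C57BL/6 and from 1119 ± 85.4 to 542 ± 63.7 RPKM in BALB/c; its 2 splice forms were not separated.

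Genes for making lactate from pyruvate and for exporting it fell in both strains, apart from Ldhb. Slc16a3 (NM_001038654, mm9 chromosome 11, 120810381 to 120820314), which encodes MCT4, the lactate exporter of glycolytic fibres, stood at 174, 167 and 165 RPKM in the left and at 10.5, 12.2 and 13.5 RPKM in the right C57BL/6 libraries. Slc16a3 stood at 138, 112 and 133 RPKM in the left and at 6.12, 13.6 and 5.82 RPKM in the right BALB/c libraries. The left means were 13.96-fold and 15.01-fold above the right ones, with changes of -3.76 (SE 0.096) and -3.93 (SE 0.29), the latter -4.30 without BALB/c right library 2. Ldha, the lactate dehydrogenase subunit of fast muscle, stood at 1374, 1376 and 1549.6 RPKM in the left and at 289.8, 351 and 345 RPKM in the right C57BL/6 libraries. Ldha stood at 1341, 1099 and 1266 RPKM in the left and at 232, 353 and 237 RPKM in the right BALB/c libraries. It fell 4.36-fold and 4.504-fold, and matches 5 pseudogenes over 62.9% of its transcript. Ldhb (NM_001302765, mm9 chromosome 6, 142438769 to 142456477), the subunit of heart and oxidative muscle, stood at 10.7, 19.5 and 22.1 RPKM in the left and at 35.5, 90.0 and 53.8 RPKM in the right C57BL/6 libraries. Ldhb stood at 69.5, 261 and 114 RPKM in the left and at 53.8, 118 and 29.8 RPKM in the right BALB/c libraries. Ldhb rose in C57BL/6 (1.71, SE 0.37, adjusted p = 0.00429), whereas in BALB/c the legs overlapped and no change was called (-1.14, SE 0.58, adjusted p = 0.136). The highest BALB/c value was in left library 2, and 76.8% of the Ldhb transcript matches 1 pseudogene. Without right library 2 the BALB/c change of -1.66 was called a fall (adjusted p = 0.0453). The slow fibre list, Myh2 included, summed to 129, 170.1 and 120.3 RPKM in C57BL/6 left and 3198, 5521 and 3741 in C57BL/6 right libraries. In BALB/c it summed to 601, 3617 and 3091 on the left and 4867, 7929 and 3992 on the right. The part of these genes in the Ldhb values was not tested.

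Both enzymes of the glycerol phosphate shuttle, which passes the electrons of cytosolic NADH to mitochondria, fell. Gpd1, the cytosolic enzyme, stood at 335, 337 and 348 RPKM in the left and at 41.1, 33.0 and 41.8 RPKM in the right C57BL/6 libraries. Gpd1 stood at 291, 232 and 275 RPKM in the left and at 27.8, 23.6 and 20.1 RPKM in the right BALB/c libraries. That is 8.79-fold lower in C57BL/6 and 11.2-fold lower in BALB/c. The Gpd1 span overlaps that of Gm16537 on the other strand, at a mean of 53.5 RPKM in C57BL/6. Gpd2, the mitochondrial enzyme, fell from 46.4 ± 6.18 to 11.1 ± 2.28 RPKM in C57BL/6 and from 29.3 ± 7.28 to 11.2 ± 4.19 RPKM in BALB/c.

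Of the 6 enzymes that build glycogen, 4 fell in both strains, and the branching enzyme rose in both. Gbe1 (NM_028803, mm9 chromosome 16, 70314194 to 70569965), which adds the branches, stood at 4.86, 5.93 and 4.08 RPKM in the left and at 25.9, 31.0 and 30.1 RPKM in the right C57BL/6 libraries. Gbe1 stood at 7.09, 9.10 and 9.07 RPKM in the left and at 14.7, 14.998 and 16.5 RPKM in the right BALB/c libraries. No libraries of the legs overlapped, and Gbe1 had the largest rise of the 42 genes in C57BL/6 (2.45, SE 0.14, adjusted p = 5.92e-06) and a smaller one in BALB/c (0.84, SE 0.14, adjusted p = 0.00185). After rescaling the C57BL/6 rise was 1.76, and the BALB/c change of 0.34 was no longer called (adjusted p = 0.0631). Gys1, muscle glycogen synthase, went from 115 ± 7.70 to 99.7 ± 3.34 RPKM in C57BL/6, a fall near the threshold (-0.20, SE 0.075, adjusted p = 0.0464) that was lost when any of 5 of the 6 C57BL/6 libraries, all but left library 3, was left out. In BALB/c Gys1 fell from 174 ± 27.4 to 106 ± 10.7 RPKM (adjusted p = 0.00771). Glycogenin (Gyg), the primer, fell from 196 ± 14.98 to 146 ± 13.6 RPKM in C57BL/6 and from 201 ± 21.7 to 135 ± 3.84 RPKM in BALB/c; without BALB/c left library 3 the latter had an adjusted p of 0.0510. Ugp2, which makes UDP-glucose, fell from 116 ± 16.9 to 76.3 ± 6.58 RPKM in C57BL/6 and from 119 ± 10.7 to 50.1 ± 8.36 RPKM in BALB/c.

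The 2 phosphoglucomutases differed. The row named Pgm2 (NM_028132, chromosome 4), which current annotation calls Pgm1, fell from 602 ± 13.6 to 192 ± 23.4 RPKM in C57BL/6 and from 505 ± 66.9 to 204 ± 47.4 RPKM in BALB/c. The row named Pgm1 (NM_025700, chromosome 5), which current annotation calls Pgm2, rose from 0.554 ± 0.0229 to 1.47 ± 0.252 RPKM in C57BL/6. In BALB/c it went from 1.42 ± 0.494 to 1.46 ± 0.0283 RPKM and was not called (0.06, SE 0.20; -0.32 after rescaling).

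The muscle forms of glycogen phosphorylase and of its kinase fell in both strains. Pygm (NM_011224, mm9 chromosome 19, 6384408 to 6398464), muscle glycogen phosphorylase, stood at 4461, 4078 and 4365 RPKM in the left and at 749.7, 723 and 732 RPKM in the right C57BL/6 libraries. Pygm stood at 4219, 3271 and 4108 RPKM in the left and at 879, 759.5 and 672 RPKM in the right BALB/c libraries. Pygm fell 5.85-fold in C57BL/6 and 5.02-fold in BALB/c, with the right libraries of both strains between 672 and 879 RPKM. Pygb, the brain form, stood at 0.925, 0.867 and 0.793 RPKM in the left and at 1.00, 1.66 and 1.54 RPKM in the right C57BL/6 libraries. Pygb stood at 1.32, 3.63 and 2.69 RPKM in the left and at 2.71, 2.46 and 2.53 RPKM in the right BALB/c libraries. Pygb rose in C57BL/6 (0.46, SE 0.15, adjusted p = 0.0252), a call that was lost without left library 2 or 3 or right library 2 or 3, and it had changes of -0.03 in C57BL/6 and -0.34 in BALB/c after rescaling, neither called.

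Phosphorylase kinase has a regulatory α and a catalytic γ subunit, each with a muscle and a liver form, and a shared β subunit. Phka1, muscle α, stood at 128, 105 and 103 RPKM in the left and at 19.5, 17.0 and 19.8 RPKM in the right C57BL/6 libraries. Phka1 stood at 67.0, 53.5 and 60.6 RPKM in the left and at 18.5, 10.9 and 16.5 RPKM in the right BALB/c libraries. It fell 5.97-fold and 3.95-fold. Phka2, liver α, stood at 1.49, 1.58 and 1.45 RPKM in the left and at 3.92, 3.63 and 3.82 RPKM in the right C57BL/6 libraries. Phka2 stood at 2.06, 2.11 and 1.97 RPKM in the left and at 3.25, 3.30 and 3.79 RPKM in the right BALB/c libraries. Phka2 rose in both strains, by 1.10 and 0.63, though in BALB/c not after rescaling (0.19, adjusted p = 0.287). Phkg1, muscle γ, stood at 228, 229 and 235 RPKM in the left and at 64.1, 51.9 and 63.4 RPKM in the right C57BL/6 libraries. Phkg1 stood at 197, 129.6 and 148 RPKM in the left and at 44.7, 35.1 and 38.2 RPKM in the right BALB/c libraries. The fall was 3.86-fold in C57BL/6 and 4.02-fold in BALB/c. The Phkg1 span overlaps that of Sumf2 on the other strand, at a mean of 21.9 RPKM in C57BL/6, and 26.5% of its transcript matches 18 other genes, so its level is uncertain. Phkg2 (NM_001360741, mm9 chromosome 7, 134716862 to 134726821), the γ subunit of liver and testis, stood at 5.88, 5.67 and 6.60 RPKM in the left and at 18.9, 16.8 and 15.1 RPKM in the right C57BL/6 libraries. Phkg2 stood at 7.33, 8.00 and 6.54 RPKM in the left and at 21.01, 22.8 and 22.5 RPKM in the right BALB/c libraries. Phkg2 rose 2.80-fold and 3.03-fold, in tight groups with no overlap, and also rose after rescaling. Its span overlaps Ccdc189 on the other strand, at a mean of 6.12 RPKM in C57BL/6. Of the longest coding Phkg2 transcript, 37.9% matches 1 other gene, so the Phkg2 level is uncertain too. Phkb, the β subunit, fell from 97.5 ± 5.89 to 52.4 ± 6.48 RPKM in C57BL/6 and from 78.7 ± 12.7 to 38.3 ± 8.63 RPKM in BALB/c.

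The 2 subunits that hold protein phosphatase 1 on glycogen, where it activates the synthase and shuts off phosphorylase, both fell. Ppp1r3a, the muscle subunit, fell from 30.6 ± 1.11 to 8.33 ± 0.723 RPKM in C57BL/6 and from 21.2 ± 2.89 to 6.71 ± 0.824 RPKM in BALB/c. Ppp1r3c, a more widespread one, fell from 31.8 ± 3.19 to 15.1 ± 0.971 RPKM in C57BL/6 and from 37.3 ± 18.4 to 14.3 ± 2.03 RPKM in BALB/c, where left library 3 stood at 58.5 RPKM.

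Muscle and other forms of the same step were then compared within each library, which removes nearly all effect of scaling. Of the 10 muscle forms, 9 fell and none rose in each strain (Hk2 was not called in C57BL/6, nor Aldoa in BALB/c); after rescaling 10 fell in C57BL/6 and 9 in BALB/c. Of the 11 other forms, 9 rose and none fell in C57BL/6 and 6 rose and none fell in BALB/c, which is 81.8% and 54.5% against 63.6% and 42.5% of all tested genes. After rescaling 6 and 4 rose, or 54.5% and 36.4% against 28.2% and 21.8%. Without BALB/c left library 2, 7 rose in BALB/c. The log2 ratio of muscle to other form was lower on the right in all 11 pairs, by an exact two-sided permutation test of the leg labels within both strains. In this exact permutation test 9 pairs reached the smallest p that 400 arrangements allow (p = 0.005, adjusted over the 11 pairs 0.0061). Within 1 strain, 3 against 3 cannot go below 0.1. The pairs come from the 42 genes, which were chosen with earlier results of these data known, and Pfkm enters both phosphofructokinase pairs. A ratio also falls where only the muscle form falls. After rescaling, Pfkp, Aldoc, Pgam1, Eno1 and Pygb were called in neither strain. Ratios to unrelated genes were not computed, so these falls have no background.

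The largest shift of a ratio was in Phkg1/Phkg2, by -3.44 on the log2 scale averaged over the strains. The levels of both genes are uncertain because of overlapping and matching genes. Phkg2 made up 2.52%, 2.41% and 2.73% of the summed RPKM of the pair in the left and 22.8%, 24.5% and 19.3% in the right C57BL/6 libraries, and 3.58%, 5.81% and 4.24% and 32.0%, 39.4% and 37.0% in BALB/c. Phka2 made up 1.15%, 1.48% and 1.39% of its pair in the left and 16.7%, 17.6% and 16.1% in the right C57BL/6 libraries, and 2.98%, 3.79% and 3.15% and 14.9%, 23.3% and 18.7% in BALB/c. Thus both liver-type kinase subunits took a larger share in every right library than in any left one. Hk1 made up 2.94%, 3.19% and 3.50% of the hexokinase pair in the left and 17.5%, 11.4% and 13.4% in the right C57BL/6 libraries, and 6.20%, 7.86% and 8.81% and 30.5%, 26.3% and 36.9% in BALB/c. Slc2a1 made up 1.69%, 1.37% and 1.10% and 11.5%, 8.26% and 9.79% of the transporter pair in C57BL/6, and 0.778%, 1.37% and 1.75% and 5.47%, 11.96% and 15.5% in BALB/c. The muscle form remained the larger one in every library of these 4 pairs. For Pfkm/Pfkl, Pfkm/Pfkp, Eno3/Eno1, Pygm/Pygb and Pgam2/Pgam1 the mean shifts were -2.63, -1.98, -2.94, -2.71 and -1.90, again without overlap in either strain.

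In 2 pairs the BALB/c legs overlapped. Ldhb made up 0.774%, 1.40% and 1.41% of its pair in the left and 10.9%, 20.4% and 13.5% in the right C57BL/6 libraries, but 4.92%, 19.2% and 8.26% and 18.8%, 25.1% and 11.2% in BALB/c (exact p = 0.015, adjusted 0.0165). The overlap comes from BALB/c left library 2, without which the shift was -2.74 (exact p = 0.01). Aldoc made up at most 0.016% of its pair anywhere (shift -1.04, exact p = 0.02). Its call was lost with a pseudocount of 0.1 (adjusted p = 0.085) and without BALB/c left library 2 or 3 (0.065 each) or right library 1 or 3 (0.07 and 0.055).

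**Figure D3:**
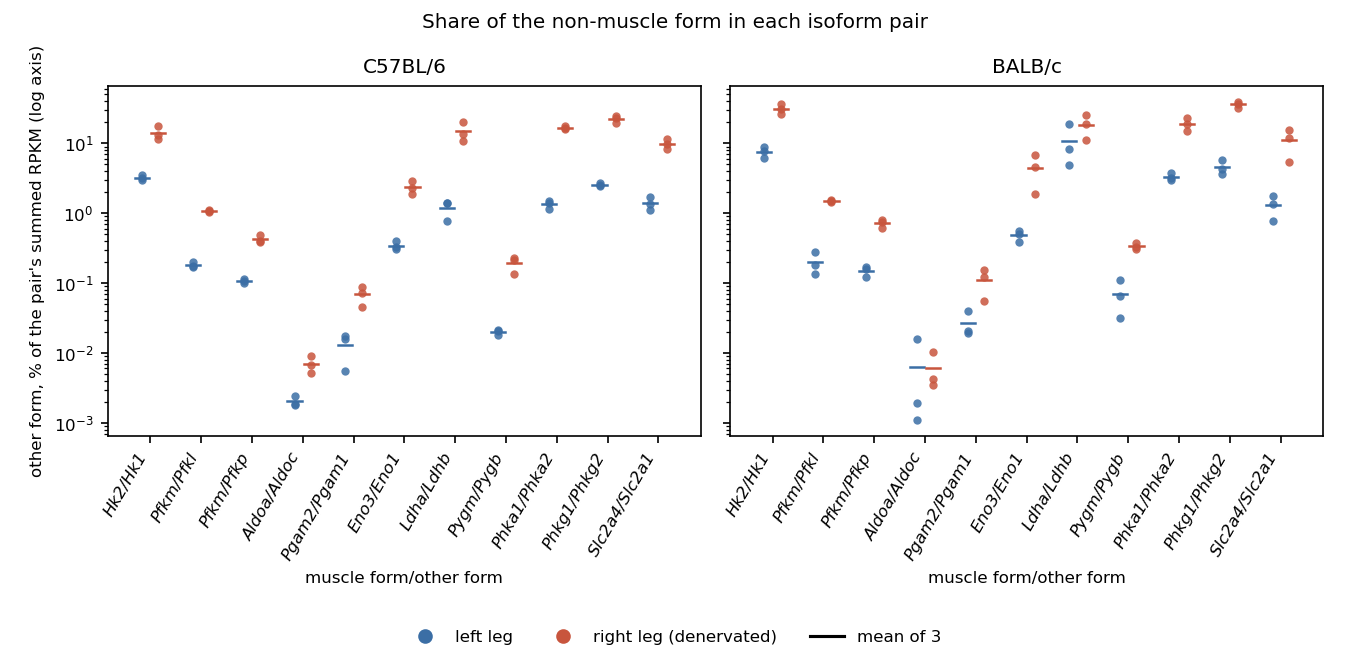
Share of the non-muscle form in the summed RPKM of each isoform pair (percent, log axis) in each library; blue points are left and red points right libraries, and bars are the means of 3. The red points lie above the blue ones in all 11 pairs in C57BL/6 and in all but Aldoa/Aldoc and Ldha/Ldhb in BALB/c.

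Glycolysis and glycogen were set side by side over the 16 glycolysis steps and the 15 glycogen genes. In C57BL/6, 9 of the 16 glycolysis genes fell and 4 rose, with a median change of -0.65; 10 of the 15 glycogen genes fell and 5 rose, with a median of -0.59. In BALB/c, 8 and 10 fell and 3 and 3 rose, with medians of -0.97 and -1.04. After rescaling 10 and 10 fell and 2 and 4 rose in C57BL/6, with medians of -1.37 and -1.31, and 9 and 10 fell and 2 and 1 rose in BALB/c, with medians of -1.49 and -1.56. As deposited, the medians of the 2 groups lay within 0.1 of each other, beside +0.52 and +0.38 for all tested genes. The summed levels of the glycolysis genes went from 28299.6, 27872 and 29619 RPKM in the left to 11239, 11585 and 11592 RPKM in the right C57BL/6 libraries. Those of the glycogen genes went from 6066, 5601 and 5875 to 1515, 1412 and 1440.5 RPKM. In BALB/c the glycolysis sums went from 27098, 23565 and 26677 to 11158, 14153 and 9531 RPKM and the glycogen sums from 5680.2, 4535 and 5511 to 1596, 1347 and 1332 RPKM. Sums are set by the most abundant genes, Aldoa for glycolysis and Pygm for glycogen. The 4 members with the highest fold falls in C57BL/6, Pfkfb3, Slc16a3, Gpd1 and Fbp2, belong to neither group.

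The test of whether the leg difference itself differed between strains (BALB/c less C57BL/6) called 3 of the 42 genes with a more negative value in BALB/c, where 4.33% of all 14165 genes were called in that direction, and none with a more positive one, where 1.76% were. After rescaling, Gbe1, Hk2 and Pgm1 were called with a more negative value against 3.49% of all genes, and none with a more positive one against 3.71%. The clearest was Gbe1, with a difference of -1.60 (SE 0.20, adjusted p = 0.00225), or -1.42 after rescaling (adjusted p = 0.00237) and -1.55 without BALB/c left library 2 (adjusted p = 0.00604). The change of Hk2 was more negative in BALB/c by -0.90 (SE 0.20, adjusted p = 0.0254); without BALB/c left library 2 the adjusted p was 0.0512. The difference of Pgk1 was -0.57 (SE 0.13, adjusted p = 0.0310), which after rescaling was -0.38 (adjusted p = 0.244). The Hk2 call was also lost without C57BL/6 left library 1, 2 or 3 or right library 2 or 3 (adjusted p up to 0.0727). The Pgk1 call was lost without any of those, BALB/c left library 3 or BALB/c right library 1 or 3 (0.0540 to 0.0866). Without BALB/c right library 2 the contrast called 7 genes with a more negative value and 2 with a more positive one. Over all 14146 genes tested in that setting, 784 and 505 were called. The genes gained there are not named. Ldhb had the largest difference in size, -2.85 (SE 0.78, adjusted p = 0.0523), and was not called. With all 12 libraries as deposited, no difference was called for the remaining genes. This does not show that the strains responded alike: the SE of a difference was 0.30 for Aldoa and 0.43 for Slc2a1.

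**Figure D4:**
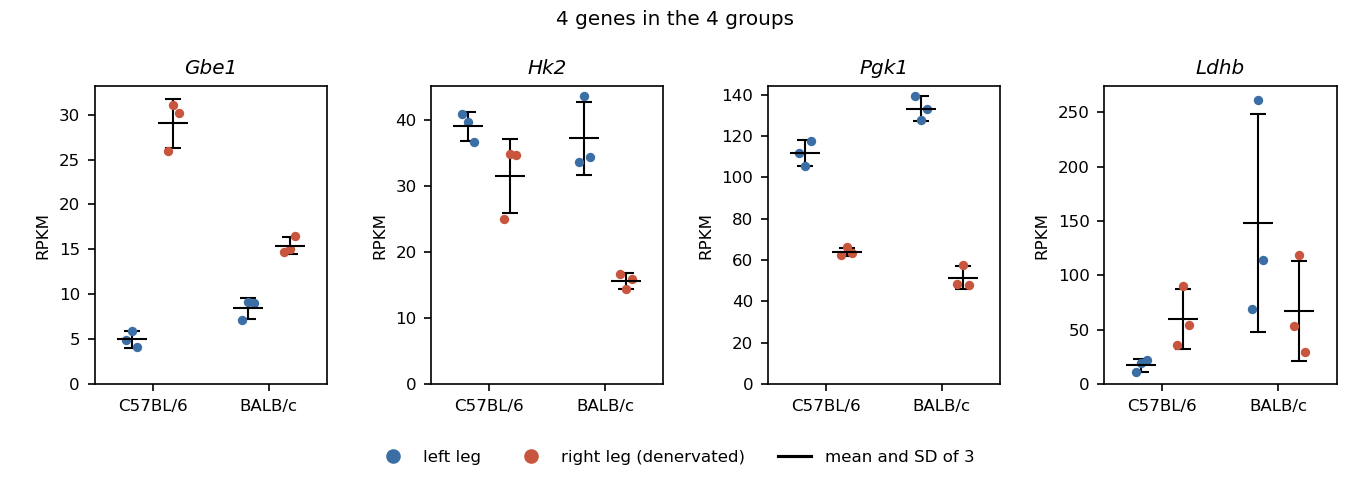
RPKM of Gbe1, Hk2, Pgk1 and Ldhb in each library of the 4 groups; horizontal bars and whiskers are the mean and SD of 3 libraries. Gbe1 goes from 4.96 to 29.0 RPKM in C57BL/6 and from 8.42 to 15.4 RPKM in BALB/c, and the BALB/c left libraries of Ldhb are widely spread.

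Markers of other cells and of fibre types moved between the legs as well. Of 9 fast fibre markers, 9 fell in C57BL/6 and 3 in BALB/c. Of 10 genes listed as slow fibre markers, Myh2 of fast IIA fibres among them, 10 rose in C57BL/6 and 3 in BALB/c. Over all tested genes 8.56% and 7.67% fell and 63.6% and 42.5% rose, so the 30% of slow markers in BALB/c is below the share of all genes. Without BALB/c left library 2, 4 fast markers fell, 4 slow markers rose and 15 macrophage markers rose in BALB/c. Macrophage markers rose in 17 of 17 genes in C57BL/6 (summed level 11.4 to 15.04 RPKM on the left, 106 to 206 on the right) and in 12 of 17 in BALB/c (69.5 to 115 and 210.5 to 333), or 10 of 17 after rescaling. Fibroblast markers rose in 12 of 12 genes in C57BL/6, and in BALB/c 6 rose and 2 fell; after rescaling 7 rose in C57BL/6, and none rose and 3 fell in BALB/c. None of the 10 endothelial markers rose in either strain, and 3 fell in C57BL/6 and 2 in BALB/c, or 10 and 8 after rescaling. Of 8 genes listed as satellite cell and regenerating fibre markers, 5 rose and 1 fell in C57BL/6 and 6 rose in BALB/c. Their summed level was 180.4 to 410.1 RPKM on the left and 371 to 648 on the right in C57BL/6. In BALB/c it was 129.1 to 287 and 539 to 685. These genes were Pax7, Myf5, Myod1, Myog, Cdh15, Myh3, Myh8 and Ncam1. Whether their RNA came from such cells or from the denervated fibres themselves was not tested. No gene of these lists was at 0 throughout a leg of a strain. Their part in the rises of Hk1, Pfkl, Slc2a1 and the other non-muscle forms, and in the falls of the muscle forms, was not tested.

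Genes around the pathway, taken from lists by function, moved as follows. Among all tested genes 63.6% rose and 8.56% fell in C57BL/6, and 42.5% rose and 7.67% fell in BALB/c. After rescaling 28.2% rose and 26.4% fell in C57BL/6, and 21.8% rose and 19.0% fell in BALB/c. The counts of every list below are to be read beside these shares. Other isoforms of the same steps numbered 14 tested in C57BL/6 and 15 in BALB/c, of which 5 and 4 rose and 4 and 5 fell; after rescaling 3 and 2 rose and 5 and 6 fell. Tigar, which breaks down fructose 2,6-bisphosphate, fell from 38.7 ± 3.24 to 5.57 ± 0.350 RPKM in C57BL/6 and from 23.1 ± 1.77 to 3.66 ± 0.230 RPKM in BALB/c. Pgm5, a relative of the mutases that is found at cell junctions, rose from 1.199 ± 0.226 to 25.4 ± 5.10 RPKM in C57BL/6. Ldhd, the D-lactate dehydrogenase of mitochondria, fell from 19.3 ± 4.94 to 4.10 ± 1.80 RPKM in BALB/c.

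Of 13 and 14 other glycogen genes, 5 rose and 5 fell in C57BL/6 and 3 rose and 3 fell in BALB/c; after rescaling 1 rose and 9 fell, and 1 rose and 5 fell. Stbd1, which binds glycogen and carries it to lysosomes, rose from 19.7 ± 2.72 to 59.7 ± 6.81 RPKM and from 11.6 ± 4.82 to 49.5 ± 7.82 RPKM. Calm2, one of the genes for calmodulin, the fourth subunit of phosphorylase kinase, fell by 1.09 and 0.90. Among 8 other transporters, 4 rose and 4 fell in C57BL/6 and 2 rose and 2 fell in BALB/c; after rescaling none rose and 4 fell, and 1 rose and 2 fell. Slc37a4, the glucose 6-phosphate carrier of the endoplasmic reticulum, fell from 60.9 ± 3.53 to 14.4 ± 1.78 RPKM and from 67.0 ± 16.1 to 13.6 ± 0.230 RPKM. G6pc3, the glucose 6-phosphatase of most tissues, rose by 1.202 in BALB/c, and Slc2a12, a glucose transporter, fell by 1.08 there. In C57BL/6 Slc2a3, which encodes GLUT3, fell by 1.32, and Slc16a1, the MCT1 lactate transporter, rose by 1.06 (0.41 after rescaling, not called).

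The pentose phosphate pathway is a side branch that makes NADPH. Of its 8 genes 6 rose and 1 fell in C57BL/6, and 5 rose and none fell in BALB/c, with medians of 0.94 and 0.75. The risen shares of 75% and 62.5% stand beside 63.6% and 42.5% of all tested genes. After rescaling 4 rose and 2 fell in C57BL/6, and 3 rose and 1 fell in BALB/c, with medians of 0.27 and 0.28. Pgd rose from 3.73 ± 0.628 to 24.6 ± 1.33 RPKM in C57BL/6 and from 6.77 ± 1.021 to 27.0 ± 3.62 RPKM in BALB/c, and Pgls by 1.80 and 1.36. G6pdx, its entry enzyme, rose by 1.196 in C57BL/6, and Taldo1 by 1.09 in BALB/c. Of 18 genes for the fate of pyruvate, 6 rose and 6 fell in C57BL/6, and 1 rose and 10 fell in BALB/c; after rescaling 1 rose and 13 fell, and none rose and 15 fell. Without BALB/c left library 2 none rose and 9 fell in BALB/c. The falls after rescaling were 72.2% and 83.3% of the pyruvate list, beside 69.0% and 64.3% of the 42 genes. Gpt2, which makes alanine from pyruvate, fell from 48.6 ± 5.05 to 8.53 ± 0.482 RPKM and from 27.1 ± 2.97 to 5.52 ± 1.35 RPKM. Pdk4 and Pdk3, kinases that switch off pyruvate dehydrogenase, rose by 1.41 and 1.15 in C57BL/6, Pdk4 not after rescaling. Pdha1, a subunit of that complex, and Pdpr, part of its phosphatase, fell by 1.28 and 2.10 in BALB/c.

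Of 18 genes for insulin and AMPK control of glucose uptake, 7 rose and 7 fell in C57BL/6, and 8 rose and 6 fell in BALB/c. The fallen 38.9% and 33.3% stand beside 8.56% and 7.67% of all tested genes. The risen 38.9% and 44.4% stand beside 63.6% and 42.5%. After rescaling 5 of the 18 rose and 11 fell in C57BL/6, and 4 rose and 9 fell in BALB/c. Tbc1d1, which restrains GLUT4 vesicles, rose from 4.62 ± 1.57 to 30.7 ± 0.531 RPKM in C57BL/6 and from 5.64 ± 0.603 to 25.02 ± 3.06 RPKM in BALB/c. Its relative Tbc1d4 fell by 2.15 in BALB/c, where left library 2 stood at 7.93 RPKM against 2.33 and 3.11. Akt2, the insulin-responsive kinase, rose by 2.07 in BALB/c, and Irs1, an adaptor of the insulin receptor, and Prkaa2, the AMPK catalytic subunit of muscle, fell by 2.27 and 1.83 in C57BL/6. Of 17 factors known to act on such genes, 8 rose and 4 fell in C57BL/6, and 3 rose and 5 fell in BALB/c; after rescaling 2 rose and 8 fell, and 2 rose and 10 fell. Nr4a1, a nuclear receptor that responds to adrenaline and contraction in muscle, fell from 91.7 ± 22.7 to 13.0 ± 5.68 RPKM and from 99.7 ± 47.9 to 12.1 ± 4.21 RPKM. In C57BL/6 the orphan receptors Esrrg and Esrrb rose by 1.77 and 1.34, and in BALB/c Myc and Mlx rose by 1.44 and 1.24.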

How the data were processed

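Polyadenylated RNA of 12 gastrocnemius libraries was measured, 3 in each of 4 groups. The authors deposited RPKM values for each strain in 1 table; per the file headers they were made with HOMER on mm9 RefSeq transcripts, counting exons on both strands and keeping 1 transcript a gene. The submitters' processing notes name HISAT2, HOMER, DESeq2, GRCm38 and mm10 without a role or version. Because strand was not used, overlapping genes share reads. Whole reads were recovered from RPKM, length and the scaling total, within 0.1 read; reads in listed genes numbered 14826933 to 17323383 a library.

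Genes averaging 0.1 RPKM or more over a strain's libraries were tested in limma 3.58.1 (R 4.3.3) on log2(RPKM + 0.5), with a trend in the spread, separately in each strain. All 12 libraries entered the contrast between strains. P-values were adjusted by the Benjamini-Hochberg method over all genes tested, and genes with an adjusted p under 0.05 were called. A fold on this scale understates the change of low genes; folds in the text are ratios of mean RPKM. Isoform ratios were tested by exact permutation of leg labels within strains. Scripts were tested on simulated data.

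The 42 genes and the other lists were chosen with earlier results of these data known. Values in every library are given for isoform pairs, for the 5 largest called rises and falls per strain and for genes that differed between strains; of each other list, up to 3 called genes per strain are named, and some are not reported here. Alternatives were other pseudocounts (0.1 and 1), filters, scalings, limma-voom on recovered reads, a shared spread, no trend, a replicate block and leaving out each library. Transcripts of GENCODE M21 were searched for near-identical genes with blastn 2.17.0.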

Additional observations from a re-analysis of the deposited data

Results flagged for a closer look

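For 3 genes the change differed between the strains by the test of the difference itself (limma, BALB/c change minus C57BL/6 change, 12 libraries). For Gbe1 the difference was -1.60 (adjusted p = 0.00225): the gene rose in both strains, and every right library lay above every left one in each. It was called under every alternative run and without each library in turn.

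For Hk2 the difference was -0.90 (adjusted p = 0.0254), with all right libraries below all left ones in both strains. For Pgk1 it was -0.57 (adjusted p = 0.0310), again with no overlap of the legs in either strain, but -0.38 after median-of-ratios rescaling (adjusted p = 0.244). Leaving out single libraries ended the Hk2 call in 6 of 12 cases and the Pgk1 call in 8 of 12. What sets these differences was not tested.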

How the results depend on the processing

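Over all alternatives, 153 values of counts and medians kept within their limits and 31 moved; of the values of single genes, 1398 kept direction and call, 45 lost a call, 21 gained one and 27 changed sign. Rescaling by median of ratios, with or without the replicate block, left 4 rises in BALB/c. Over all 14819 tested genes, 2911 rose with the block and 3225 without it. The median of the glycolysis steps became -1.37 in C57BL/6 and -1.49 in BALB/c and that of the glycogen genes -1.31 and -1.56; with a common sum the BALB/c medians were -1.19 and -1.26. The contrast between strains called 5 genes with a more negative value after scaling to a common sum, where 820 of all 14165 genes were. With limma-voom on recovered reads 7 were called, where 861 of all genes were. Under the block with rescaling 1 gene had a more positive value, where 396 of all genes did. Leaving out 1 library gave 226 to 1028 more negative and 81 to 505 more positive calls over all tested genes. Among the 42 genes it gave 1 to 7 with a more negative and 0 to 2 with a more positive value. It moved the glycolysis median in BALB/c between -1.07 and -0.89, and the glycogen median between -0.69 and -0.48 in C57BL/6 and between -1.15 and -0.84 in BALB/c.

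Among the changes of sign were the called C57BL/6 rises of Pfkp, Eno1 and Pygb, none of them called after rescaling. Under rescaling, with or without the block, C57BL/6 values became -0.022 for Pfkp, -0.072 for Aldoc, -0.18 for Eno1 and -0.028 for Pygb, and BALB/c values -0.50 for Pfkfb4, -0.20 for Eno1, -0.34 for Pygb and -0.32 for Pgm1. With a common sum, BALB/c values were -0.19 for Pfkfb4, -0.094 for Pygb and -0.099 for Pgm1. With limma-voom they were -0.090 for Pfkfb4 and -0.0013 for Pgm1. Leaving out 1 BALB/c library gave -0.26 to 0.27 for Pfkfb4 (below 0 at -0.070 without left 2 and at -0.26 without right 3), -0.70 to 0.41 for Aldoc (above 0 without left 1), -0.24 to 0.35 for Pygb (below 0 without left 1), and -0.067 to 0.27 for Pgm1 (below 0 without left 1, and at -0.0056 without left 3). The cause was not tested.

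Whether equal replicate numbers pair the legs was not settled. In BALB/c the library codes skip the same number in both legs, although the titles do not. No label says that a number marks a mouse. Deviations of same-numbered libraries correlated at 0.18, 0.10 and 0.007 in C57BL/6 and at 0.010, 0.066 and 0.24 in BALB/c, all positive. Those of differently numbered libraries correlated at -0.19 to 0.11, and not every library correlated best with its own number. With 3 libraries a leg these values cannot decide it. With the number as a replicate block, Gys1 in C57BL/6 was not called (adjusted p = 0.0704), Ldhb in BALB/c was called (0.0188), the strain differences of Hk2 and Pgk1 were not (0.0581 and 0.0796), and the Aldoa/Aldoc ratio was not (0.0625, exact sign flips). Depth limits Pgam1 and Aldoc, with as few as 6 and 7 reads in a library.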
